A study of Mus musculus with 8 samples.

Results

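The 10 genes described here belong to the canonical Wnt pathway and cover the making of a Wnt signal, its nuclear readout and its feedback: Porcn and Wnt3, Tcf7l1, Tcf7 and Lef1, Axin2, Sp5, Nkd1 and Dkk1, and Sfrp1. They were chosen by name, and a gene was taken from the array table where a probe set carried that symbol alone. This found 9 of the 10 among 19938 genes tested, each with 1 probe set. Tcf7 is paired with a probe set only in a second deposited table, a workbook of log2 values per gene, so it is described beside the 9 and stays out of their counts.

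The cells were of the feeder-independent mouse embryonic stem cell (ESC) line CGR8, given in the labels with donor strain 129P2/OlaHsd and background strain C57BL/6. PML, the promyelocytic leukaemia protein that builds nuclear bodies, was knocked down (KD) by a short hairpin RNA expressed stably from the pLKO.1 lentiviral vector, with puromycin selection. There were 4 groups of 2 Affymetrix arrays each, 8 in all. WT ESCs and PML KD ESCs were taken at day 0 from serum medium with leukaemia inhibitory factor (LIF). WT and PML KD embryoid bodies (EBs), aggregates started as hanging drops in serum medium without LIF, were taken at day 4. Viruses of the empty vector are also mentioned, while the controls are labelled WT, so the sources used here do not settle whether the controls carry that vector, nor whether the KD cells were 1 clone.

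Wnt proteins are secreted signals that need a lipid, attached in the endoplasmic reticulum by the acyltransferase Porcupine (Porcn), before the carrier Wntless can bring them to the cell surface. A Wnt bound to a Frizzled receptor and Lrp5 or Lrp6 stops the Axin-based destruction complex from degrading beta-catenin, which then binds Tcf/Lef factors in the nucleus. Targets such as Axin2, Nkd1, Dkk1 and Sp5 dampen the signal that induced them. In mouse ESCs Tcf7l1 is a well studied repressor of this family that holds back pluripotency genes, and in the mouse embryo Wnt3 is needed to form the primitive streak.

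Values below are log2 signal, the 2 numbers of a group are its 2 arrays, and each ± is the standard error (SE) of a difference fitted with limma. The words rose, fell and changed are kept for genes whose p-value, adjusted over all 19938 genes, was under 0.05. Precision is limited by the number of arrays, and since separate cultures are not named in the labels, p-values measure the spread between these arrays, which may be technical. Median linear signal ran from 169 to 199 over the arrays. Pml itself was at 11.70 and 11.68 in WT ESCs and at 11.10 and 11.07 in PML KD ESCs, a fall of 1.52-fold (-0.60 ± 0.08, adjusted p = 0.000317), and it was 1.18-fold lower in PML KD than in WT EBs (-0.24 ± 0.08, adjusted p = 0.0451), a call lost after a shift of the arrays to a common median (-0.13, adjusted p = 0.246). The PML KD ESC arrays stand apart from the other 6 in transcripts of the Y chromosome: Eif2s3y was at 4.95 to 5.20 on them against 9.86 to 10.20, and Uty at 5.40 to 5.77 against 9.03 to 9.38, while Kdm5d was low on all 8. Every comparison with PML KD ESCs rests on these arrays, and the part of this difference in the results was not tested. The PML KD EBs are among the other 6, so the PML KD comparison over time spans the difference as well. Whether both PML KD groups came from 1 cell stock is not settled by the sources used here. In PML KD, a rise or fall over time therefore means EB arrays against ESC arrays, and may not follow 1 population.

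In PML KD ESCs at day 0, Porcn was 4.28-fold higher and Tcf7l1 2.15-fold lower than in WT ESCs, the only members of the 9 that differed by 2-fold or more, and Axin2 and Dkk1 were higher. That makes 4 of 9 members changed, 3 higher and 1 lower, where 52.3% of all genes changed, 27.5% higher and 24.9% lower. In EBs at day 4 both leading genes had turned around: Porcn was 1.50-fold lower and Tcf7l1 1.62-fold higher in PML KD, with Wnt3 and Sfrp1 higher and Sp5 lower. There 5 of 9 changed, 3 higher and 2 lower, against 28.6% of all genes (16.8% higher, 11.8% lower). The median difference of the members was 0.13 at day 0 and -0.12 at day 4, and that of all genes 0.09 and -0.02. The share of members that changed lay near that of all genes at day 0 in the deposited values, and which members passed at day 0 depended on scaling.

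From day 0 to day 4 in WT, all 9 members changed, 7 higher and 2 lower, led by a 4.33-fold rise of Dkk1 and falls of Tcf7l1 and Sfrp1 by more than 2-fold. Of all genes 49.9% changed in that comparison, 24.3% higher and 25.6% lower, and the median was 0.42 for the members and 0.06 for all genes. In PML KD 7 of 9 changed, 5 higher and 2 lower, against 49.6% of all genes (24.3% higher, 25.2% lower), with medians of 0.44 and -0.06. The change over time itself differed between PML KD and WT for 5 members, 2 toward higher and 3 toward lower in PML KD: Porcn, Tcf7l1, Axin2, Sp5 and Wnt3. Of all genes 50.6% passed that test of the difference, 25.2% higher and 25.4% lower. The knockdown comparisons and the comparisons over time share arrays, so they are not independent of each other.

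**Figure D1:**
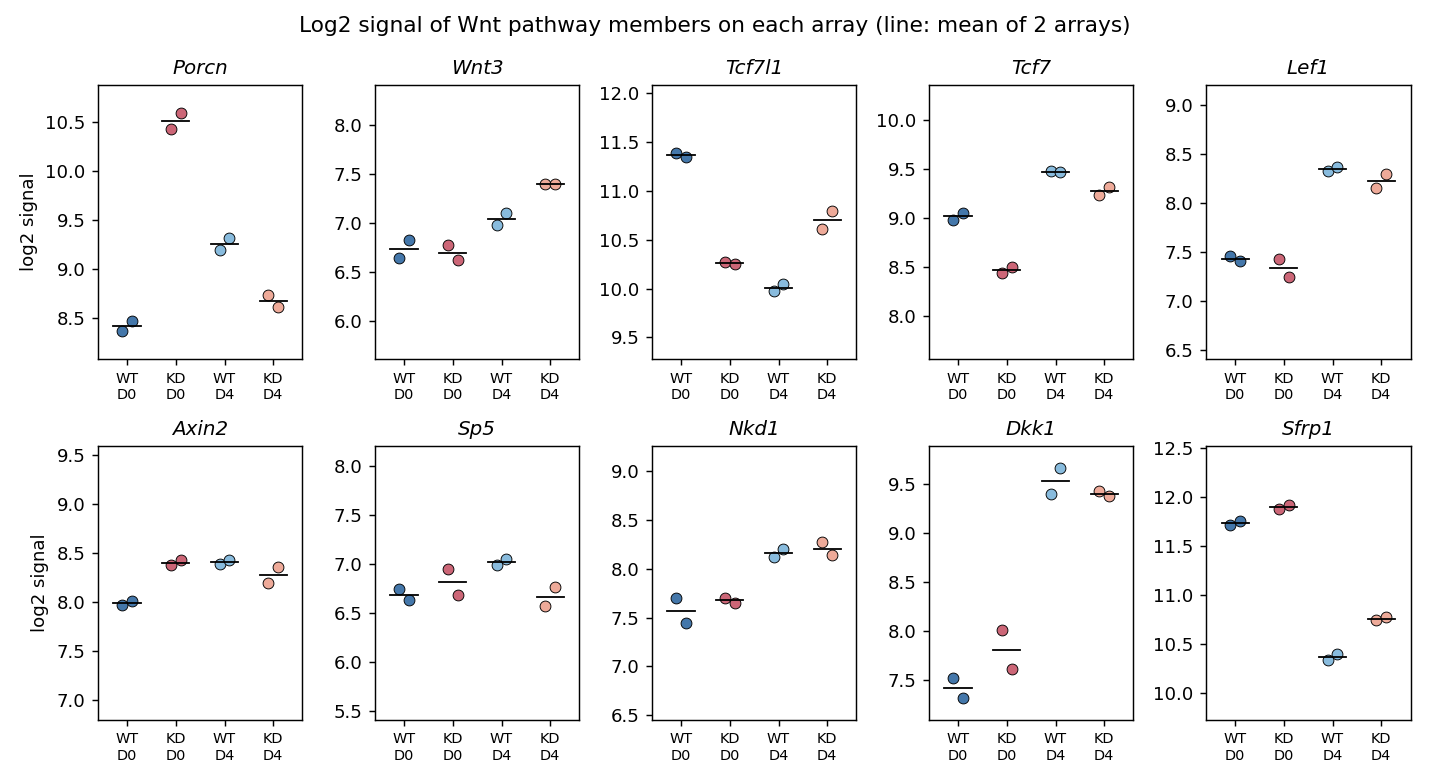
Log2 signal (vertical axis, 1 point per array, a line at the mean of the 2 arrays) of the 9 members and Tcf7 in WT and PML KD (KD) cells at day 0 (D0, ESCs) and day 4 (D4, EBs), with the same span of log2 units in every panel. Porcn is highest in PML KD ESCs at 10.44 and 10.60 and Tcf7l1 highest in WT ESCs at 11.38 and 11.34, while Dkk1 and Lef1 separate mainly by day.

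Porcn (GRCm38.p6 chrX:8193846-8206548) attaches palmitoleate to Wnt proteins, the step without which they are not secreted. Porcn signal was 8.37 and 8.47 in WT ESCs, 10.44 and 10.60 in PML KD ESCs, 9.20 and 9.32 in WT EBs, and for PML KD EBs 8.74 and 8.61. The 4 groups did not overlap, PML KD ESCs were highest by more than 1 log2 unit, and the 2 lowest groups, WT ESCs and PML KD EBs, were not separated by the test (adjusted p = 0.0554). The KD difference was 2.10 ± 0.09 at day 0 (adjusted p = 4.30e-06) and -0.59 ± 0.09 at day 4 (adjusted p = 0.00234). Porcn rose over time in WT, by 0.84 ± 0.09 (adjusted p = 0.000113), and fell in PML KD, by 1.84 ± 0.09 (adjusted p = 1.55e-06). The difference of these changes was -2.68 ± 0.13 (adjusted p = 8.85e-06). In this bulk RNA, fewer cells of a type and less RNA per cell cannot be told apart.

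In PML KD ESCs at day 0, 27.5% of all genes were higher and 24.9% lower than in WT ESCs. Of 29 other measured genes within 500 kb of Porcn on the X chromosome, 4 were higher and 12 lower. Their median difference was -0.15, with a range from -2.04 to 1.49. The largest rise there was that of Ebp, which encodes a sterol isomerase of cholesterol synthesis and was singled out after its values were seen. Ebp (chrX:8185329-8193512) ends 334 bases before Porcn begins. Ebp signal was 8.16 and 8.25 in WT ESCs, 9.60 and 9.79 in PML KD ESCs, 9.25 and 9.36 in WT EBs, and for PML KD EBs 9.25 and 9.23. It was higher in PML KD at day 0 (1.49 ± 0.09, adjusted p = 1.08e-05) and was not separated at day 4 (-0.06 ± 0.09, adjusted p = 0.635), where Porcn was lower.

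Wnt3 (chr11:103774175-103818021) encodes the Wnt ligand that acts in the epiblast before the primitive streak forms. It was a dim probe set, between the 26.0 and 41.8 percentile of all genes over the arrays. Wnt3 signal was 6.65 and 6.83 in WT ESCs, 6.77 and 6.62 in PML KD ESCs, 6.98 and 7.11 in WT EBs, and for PML KD EBs 7.40 and 7.40. The ESC groups overlapped and the EB groups did not, with PML KD EBs highest. The KD difference at day 0 was -0.04 ± 0.09, with a 95% confidence interval from -0.25 to 0.18. After quantile normalization it was -0.30 (adjusted p = 0.0297), and after the shift to a common median -0.26 (adjusted p = 0.0477). At day 4 Wnt3 was higher in PML KD by 0.36 ± 0.09 (adjusted p = 0.0230), a call lost without WT EB replicate 1 (0.29, adjusted p = 0.114), PML KD EB replicate 1 (0.36, adjusted p = 0.0981) or PML KD EB replicate 2 (0.36, adjusted p = 0.0927). Wnt3 rose over time by 0.70 ± 0.09 in PML KD (adjusted p = 0.000340). In WT it rose by 0.31 ± 0.09 (adjusted p = 0.0240), a call lost after quantile normalization (0.10, adjusted p = 0.453) and without WT ESC replicate 1 (0.22, adjusted p = 0.151) or WT EB replicate 2 (0.25, adjusted p = 0.123). The difference of these changes was 0.40 ± 0.13 (adjusted p = 0.0360), and 0.77 after quantile normalization. It no longer passed with a trend in the prior (adjusted p = 0.0671), with all probe sets tested (adjusted p = 0.0569), or without WT ESC replicate 2, WT EB replicate 1, PML KD ESC replicate 2, PML KD EB replicate 1 or PML KD EB replicate 2, where it was 0.31 to 0.40 (adjusted p from 0.0826 to 0.122).

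Tcf7l1 (chr6:72626371-72789045), also called Tcf3 in mouse ESC work, represses Wnt targets and pluripotency genes until beta-catenin relieves it. Tcf7l1 signal was 11.38 and 11.34 in WT ESCs, 10.27 and 10.25 in PML KD ESCs, 9.98 and 10.04 in WT EBs, and for PML KD EBs 10.61 and 10.80. No groups overlapped, and the order of WT and PML KD was opposite on the 2 days. PML KD ESCs were lower by 1.10 ± 0.08 (adjusted p = 2.46e-05), and PML KD EBs were higher by 0.69 ± 0.08 (adjusted p = 0.000609). Tcf7l1 fell by 1.35 ± 0.08 over time in WT (adjusted p = 4.64e-06) and rose by 0.44 ± 0.08 in PML KD (adjusted p = 0.00239). The difference of the changes was 1.80 ± 0.12 (adjusted p = 2.14e-05). In both genotypes the direction was the reverse of that of Porcn.

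Tcf7 (chr11:52246527-52283383), which encodes TCF1, acts with beta-catenin mainly as an activator and is itself a Wnt target in several tissues. Its probe set, paired by the workbook, was at 8.99 and 9.05 in WT ESCs, 8.44 and 8.51 in PML KD ESCs, 9.48 and 9.47 in WT EBs, and for PML KD EBs 9.23 and 9.32. The groups did not overlap, and PML KD was below WT on both days. In a limma fit of all 35556 probe sets the KD difference was -0.55 ± 0.07 at day 0 (adjusted p = 0.00157) and -0.20 ± 0.07 at day 4, which did not pass (adjusted p = 0.0896). Tcf7 rose over time by 0.46 ± 0.07 in WT (adjusted p = 0.00309) and by 0.80 ± 0.07 in PML KD (adjusted p = 0.000330). The difference of these changes, 0.34 ± 0.10, passed there (adjusted p = 0.0327) and did not pass in the workbook after quantile normalization (0.27, adjusted p = 0.195).

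Lef1 (chr3:131110297-131224357) encodes the partner of beta-catenin that is often switched on as cells respond to Wnt. Lef1 signal was 7.46 and 7.41 in WT ESCs, 7.43 and 7.25 in PML KD ESCs, 8.33 and 8.37 in WT EBs, and for PML KD EBs 8.15 and 8.30. The days were separated, and in the array table as deposited the genotypes differed by at most 0.12 on average on each day. Lef1 rose by 0.91 ± 0.09 in WT (adjusted p = 6.08e-05) and by 0.89 ± 0.09 in PML KD (adjusted p = 7.17e-05), and the difference of these changes was -0.03 with a 95% confidence interval from -0.32 to 0.26. The KD difference was -0.09 at day 0, with an interval from -0.30 to 0.11, and -0.12 at day 4, with an interval from -0.33 to 0.08. At day 0 Lef1 passed as lower in PML KD after quantile normalization (-0.33, adjusted p = 0.0136), after the shift to a common median (-0.32, adjusted p = 0.0159) and in the workbook after quantile normalization (-0.61, adjusted p = 0.0307).

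**Figure D2:**
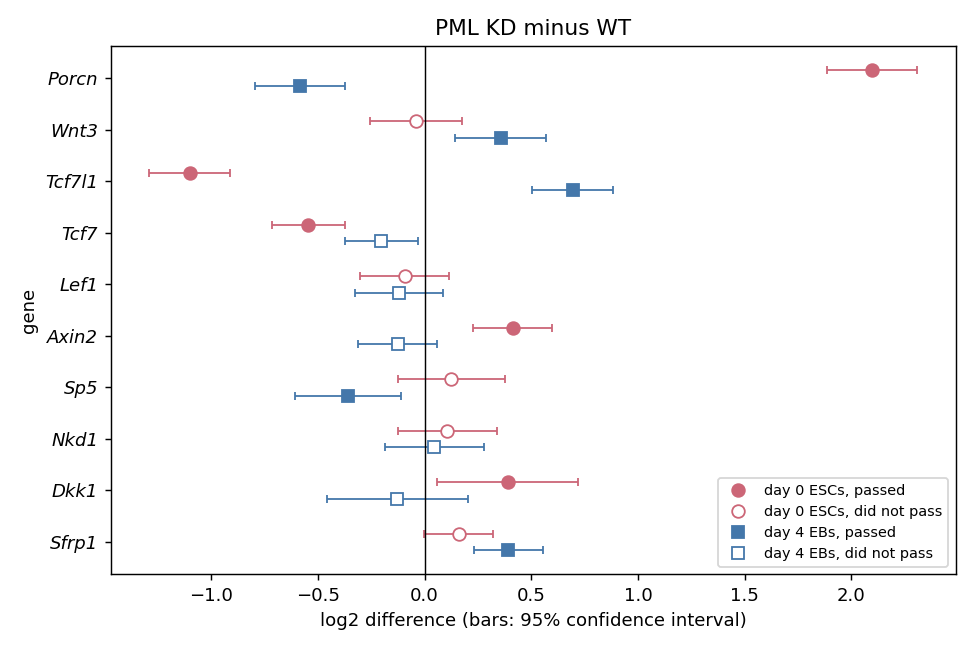
Difference in log2 signal between PML KD and WT (horizontal axis) at day 0 (circles) and day 4 (squares) for the 9 members and Tcf7, with 95% confidence intervals as bars. Filled points passed at adjusted p under 0.05. Porcn and Tcf7l1 passed on both days with opposite signs, and the intervals of Lef1 and Nkd1 span 0 on both days.

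Tcf/Lef factors bind a core that reads CTTTGA or, in a common form, CTTTGTT. Upstream stretches of 250 bases were read on both strands for 8 of the 10 genes, in RefSeq sequence of build GRCm38.p6, with 12 transcript starts in all. Sp5, Dkk1 and Axin2 are shown because they are feedback genes of the pathway that differ in these cores. The sequences run 5′ to 3′ on the gene's strand up to the base before the transcript start, and capitals mark the cores, written as AACAAAG or TCAAAG where the core lies on the opposite strand.
Sp5, chr2:70474673-70474922, plus strand: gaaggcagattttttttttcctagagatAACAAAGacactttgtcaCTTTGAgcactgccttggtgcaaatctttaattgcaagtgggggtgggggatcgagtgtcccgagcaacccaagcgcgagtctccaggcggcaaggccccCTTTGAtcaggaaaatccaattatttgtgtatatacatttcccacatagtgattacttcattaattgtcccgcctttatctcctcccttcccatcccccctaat
Dkk1, chr19:30549497-30549746, minus strand: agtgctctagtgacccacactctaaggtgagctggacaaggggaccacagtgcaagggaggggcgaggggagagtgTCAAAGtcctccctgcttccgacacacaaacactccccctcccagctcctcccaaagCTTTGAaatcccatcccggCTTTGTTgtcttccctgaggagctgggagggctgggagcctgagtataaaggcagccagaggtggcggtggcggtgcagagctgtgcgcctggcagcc
Axin2, chr11:108920099-108920348, plus strand: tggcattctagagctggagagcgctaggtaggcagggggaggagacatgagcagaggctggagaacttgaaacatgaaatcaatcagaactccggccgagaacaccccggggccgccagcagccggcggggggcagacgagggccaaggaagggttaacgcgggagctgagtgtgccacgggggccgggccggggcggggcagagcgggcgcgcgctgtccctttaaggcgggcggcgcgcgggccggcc
Sp5 holds CTTTGA at 204 to 199 and at 104 to 99 bases before the start and CTTTGTT on the opposite strand at 222 to 216. Dkk1 holds CTTTGTT at 98 to 92 bases before the start, and CTTTGA at 117 to 112 and, on the opposite strand, at 174 to 169. Lef1 has CTTTGA at 180 to 175 and at 120 to 115 bases before 1 of its listed starts, both on the opposite strand. That stretch (chr3:131156044-131156293) lies inside the gene bounds of Lef1. The stretches at its other listed starts hold neither form, including the one directly upstream of the gene (chr3:131110047-131110296). The stretch of Axin2 holds neither form, nor do those of Tcf7, Tcf7l1, Nkd1 and Wnt3. For Axin2, Nkd1 and Tcf7 the stretches read lie inside the gene bounds given below or above. The bases upstream of the whole gene were therefore not read for these genes. Of 32851 upstream stretches of the same length in the table, 13.8% hold CTTTGA and 5.03% hold CTTTGTT, so these short cores occur widely, and a match is a description of the letters.

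Axin2 (chr11:108917828-108950783) rebuilds the destruction complex and is a widely used readout of canonical Wnt signalling. Axin2 signal was 7.96 and 8.01 in WT ESCs, 8.37 and 8.43 in PML KD ESCs, 8.38 and 8.43 in WT EBs, and for PML KD EBs 8.20 and 8.36. WT ESCs were below every other array, and PML KD ESCs already lay at the level of WT EBs. PML KD ESCs were higher than WT ESCs by 0.41 ± 0.08 (adjusted p = 0.00310), while the EB groups were not separated (-0.13 ± 0.08, adjusted p = 0.286). Axin2 rose over time by 0.42 ± 0.08 in WT (adjusted p = 0.00280) and was not separated in PML KD (-0.12 ± 0.08, adjusted p = 0.244), and the difference of these changes passed (-0.54 ± 0.11, adjusted p = 0.00497). These calls rest on the array table: the day 0 difference was 0.19 after the shift to a common median (adjusted p = 0.0846) and -0.03 in the workbook after quantile normalization (adjusted p = 0.932). The shift also ended the call for the rise in WT (0.21, adjusted p = 0.0592) and for the difference of the changes (-0.20, adjusted p = 0.186).

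Sp5 (chr2:70474923-70477726) encodes a zinc finger repressor that is a direct target of beta-catenin and limits other targets. It was dim, between the 26.3 and 33.7 percentile. Sp5 signal was 6.74 and 6.63 in WT ESCs, 6.94 and 6.68 in PML KD ESCs, 6.99 and 7.05 in WT EBs, and for PML KD EBs 6.57 and 6.76. The 2 ESC groups overlapped, and WT EBs were above all other arrays. At day 0 the KD difference was 0.13 ± 0.11 (adjusted p = 0.356), and at day 4 Sp5 was lower in PML KD (-0.36 ± 0.11, adjusted p = 0.0399). Sp5 rose over time in WT (0.33 ± 0.11, adjusted p = 0.0320) and was not separated in PML KD (-0.15 ± 0.11, adjusted p = 0.288), with a difference of the changes of -0.48 ± 0.15 (adjusted p = 0.0296). All 3 calls were lost after quantile normalization, which gave -0.23 at day 4 (adjusted p = 0.133), 0.12 over time in WT (adjusted p = 0.369) and -0.10 for the difference of the changes (adjusted p = 0.627). Dropping either WT ESC array or a single EB array, whichever of the 4, also ended the day 4 call, and the rise in WT did not pass when any 1 of the 4 WT arrays was left out. The difference of the changes no longer passed without WT ESC replicate 2, either WT EB array, PML KD ESC replicate 1 or PML KD EB replicate 1 (-0.51 to -0.35). In PML KD the workbook gave a fall over time that passed, of -1.28 as deposited (adjusted p = 0.00655) and -0.81 after quantile normalization (adjusted p = 0.0403).

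Nkd1 (chr8:88521342-88594887) encodes a cytoplasmic inhibitor that binds Dishevelled and is induced by Wnt. Nkd1 signal was 7.70 and 7.44 in WT ESCs, 7.70 and 7.65 in PML KD ESCs, 8.11 and 8.20 in WT EBs, and for PML KD EBs 8.27 and 8.13. Genotypes overlapped on both days in this table and the days did not overlap. The KD difference was 0.11 at day 0, with a 95% confidence interval from -0.13 to 0.34, and 0.05 at day 4, with an interval from -0.19 to 0.28. Over time Nkd1 rose by 0.59 ± 0.10 in WT (adjusted p = 0.00149) and by 0.52 ± 0.10 in PML KD (adjusted p = 0.00277) in the array table, whereas it fell by 1.46 in WT (adjusted p = 0.00188) and by 1.31 in PML KD (adjusted p = 0.00293) in the workbook after quantile normalization. The workbook values were 9.00 and 8.96 in WT ESCs against 7.83 and 7.22 in WT EBs, while PML KD ESCs were at 9.55 and 9.59 against 8.44 and 8.08 in PML KD EBs. PML KD lay above WT on both days in the workbook without overlap, by 0.59 at day 0 (adjusted p = 0.0676) and 0.74 at day 4 (adjusted p = 0.0507), and as deposited the day 4 difference passed (0.81, adjusted p = 0.0392). The 2 deposited tables thus disagree on the direction for Nkd1 over time and on the size of its difference between genotypes.

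Dkk1 (chr19:30545876-30549496) encodes a secreted antagonist that binds Lrp5 and Lrp6 and is made by anterior visceral endoderm and by streak mesoderm of the mouse embryo. Dkk1 signal was 7.52 and 7.32 in WT ESCs, 8.01 and 7.61 in PML KD ESCs, 9.40 and 9.67 in WT EBs, and for PML KD EBs 9.43 and 9.38. The EB arrays of both genotypes overlapped and lay above all ESC arrays. Dkk1 rose over time by 2.12 ± 0.14 in WT (adjusted p = 8.14e-06) and by 1.60 ± 0.14 in PML KD (adjusted p = 3.66e-05), 4.33-fold and 3.03-fold. The difference of these changes did not pass (-0.52 ± 0.20, adjusted p = 0.0626), and passed with a trend in the prior (adjusted p = 0.0134). At day 0 Dkk1 was higher in PML KD by 0.39 ± 0.14, at an adjusted p of 0.0499. That call was lost after quantile normalization (0.18, adjusted p = 0.382), and on leaving out any 1 of 5 arrays: dropping PML KD ESC replicate 1 gave 0.19, with an adjusted p of 0.306, and the value was 0.49 and 0.29 without WT ESC replicate 1 or 2 (adjusted p = 0.0557 and 0.220), and 0.39 without either PML KD EB array (adjusted p = 0.0738). At day 4 the KD difference was -0.13 with a 95% confidence interval from -0.46 to 0.20.

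Sfrp1 (chr8:23411383-23449632) encodes a secreted Frizzled-related protein that binds Wnt ligands outside the cell. Its signal was 11.72 and 11.75 in WT ESCs, 11.88 and 11.92 in PML KD ESCs, 10.34 and 10.40 in WT EBs, and for PML KD EBs 10.75 and 10.77. PML KD lay above WT on both days without overlap, and both ESC groups lay above both EB groups. Sfrp1 was higher in PML KD EBs by 0.39 ± 0.07 (adjusted p = 0.00409). At day 0 the difference of 0.16 ± 0.07 did not pass (adjusted p = 0.0871), was 0.34 after quantile normalization (adjusted p = 0.00332) and -0.07 after the shift to a common median (adjusted p = 0.482). Sfrp1 fell over time by 1.37 ± 0.07 in WT (adjusted p = 1.82e-06) and by 1.14 ± 0.07 in PML KD (adjusted p = 4.54e-06). The difference of these changes was 0.23 ± 0.10 (adjusted p = 0.0796), -0.03 after quantile normalization (adjusted p = 0.818) and 0.57 after the shift, where it passed (adjusted p = 0.00137). Sfrp1 and Nkd1 lie on chromosome 8, whose 550 genes above the median signal had a median difference of 0.10 between PML KD and WT ESCs, against -0.16 for such genes elsewhere. At day 4 these medians were 0.09 and 0.08, and the part of the chromosome in either gene's values was not tested.

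**Figure D3:**
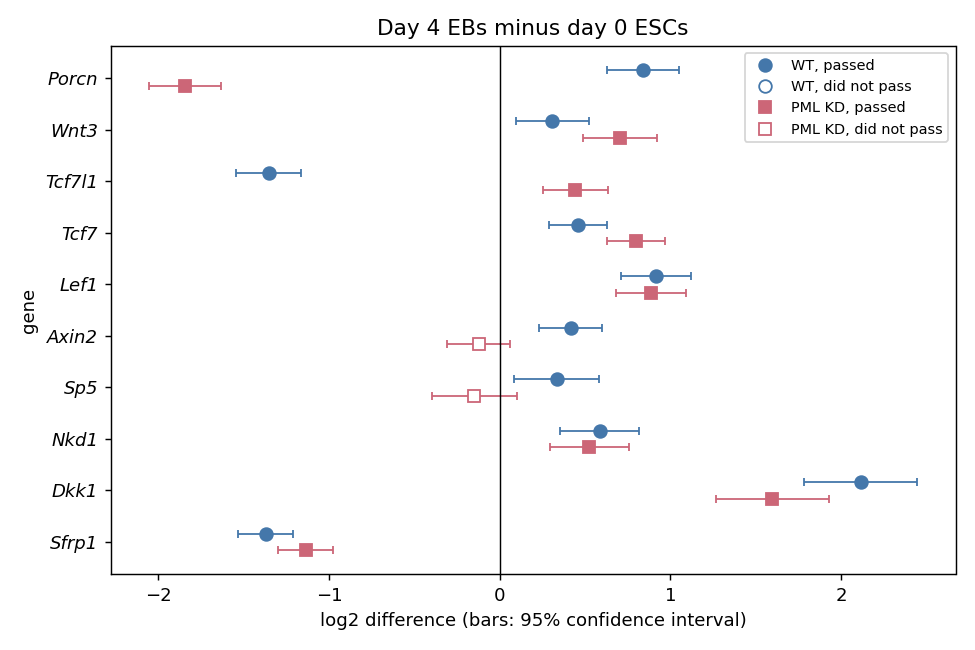
Difference in log2 signal between day 4 EBs and day 0 ESCs (horizontal axis) in WT (circles) and PML KD (squares) for the 9 members and Tcf7, with 95% confidence intervals as bars and filled points for adjusted p under 0.05. Porcn rose in WT and fell in PML KD, Tcf7l1 did the opposite, and Lef1, Dkk1 and Sfrp1 moved the same way in both.

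Marker genes of several cell types also differed between groups. Of 12 ESC marker genes 8 were lower in PML KD ESCs and none higher, against 24.9% lower and 27.5% higher of all genes. Their summed linear signal was 47037 to 49967 there against 66412 to 67400 in WT ESCs. At day 4 the order was the opposite, with 7 of the 12 higher and 3 lower in PML KD EBs, a median difference of 0.60 and a sum of 21526 to 22098 against 18651 to 18678 in WT EBs. Nanog was higher there by 1.15 ± 0.07 (adjusted p = 3.92e-05). The 3 lower were Pou5f1, at a mean of 11.75 against 12.00 in WT EBs, Klf4 (8.52 against 8.87) and Tbx3 (10.20 against 10.77). After the shift to a common median 7 were higher and 1 lower. In the workbook after quantile normalization 3 of the 12 were higher and 2 lower at day 4. In both genotypes 10 of the 12 fell over time, where 25.6% of all genes fell in WT and 25.2% in PML KD. In EBs all 15 visceral endoderm markers were lower in PML KD, with a sum of 18159 to 18519 against 57951 to 58922 in WT EBs, led by Afp at -2.82 ± 0.08 (adjusted p = 3.06e-06). The 15 became 14 after quantile normalization and 13 after the shift to a common median. Of all genes 16.8% were higher and 11.8% lower in PML KD EBs than in WT EBs. Of 11 trophectoderm markers 10 were higher and 1 lower in PML KD EBs, with a sum of 18308 to 18369 against 9290 to 9666. The 1 lower was Cdx2, at a mean of 7.31 against 7.70 in WT EBs, a call lost after either rescaling of the array table. Krt18 (12.84 against 12.11) and Krt8 (12.38 against 11.47) had the highest signals of the list and weigh most in the sum. Of 11 primitive streak markers 4 were lower and none higher in PML KD EBs. Their sum was 3000 to 3042 against 4445 to 4527 in WT EBs. The defining marker T was not among the 11. It was among the 12 measured in the workbook, where after quantile normalization 1 was higher and 4 lower, and its own value is not given here. Whether these markers reflect a different mix of cells was not tested. Nor was the part of such a mix in the day 4 values of Porcn, Tcf7l1, Wnt3, Sp5 and Sfrp1.

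Rescaling the array table changed a call for Wnt3, Lef1, Axin2, Sp5, Dkk1 and Sfrp1 in at least 1 comparison. The median difference of all genes between PML KD and WT at day 0 was 0.09 in the deposited values, -0.06 after quantile normalization and -0.14 after the common-median shift, and 52.5%, 38.6% and 21.5% of the changed genes were higher. At day 4 the share higher was 58.8%, 63.2% and 80.2% in the same order. Over time it was 48.8%, 39.9% and 23.0% in WT and 49.1%, 58.1% and 66.7% in PML KD, and for the difference of the changes 49.9%, 65.1% and 83.8%. Porcn and Tcf7l1 kept direction and call in all 5 comparisons under each alternative tried, and so did Sfrp1 in PML KD against WT at day 4 and in both comparisons over time, and Dkk1 and Lef1 in both over time.

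**Figure D4:**
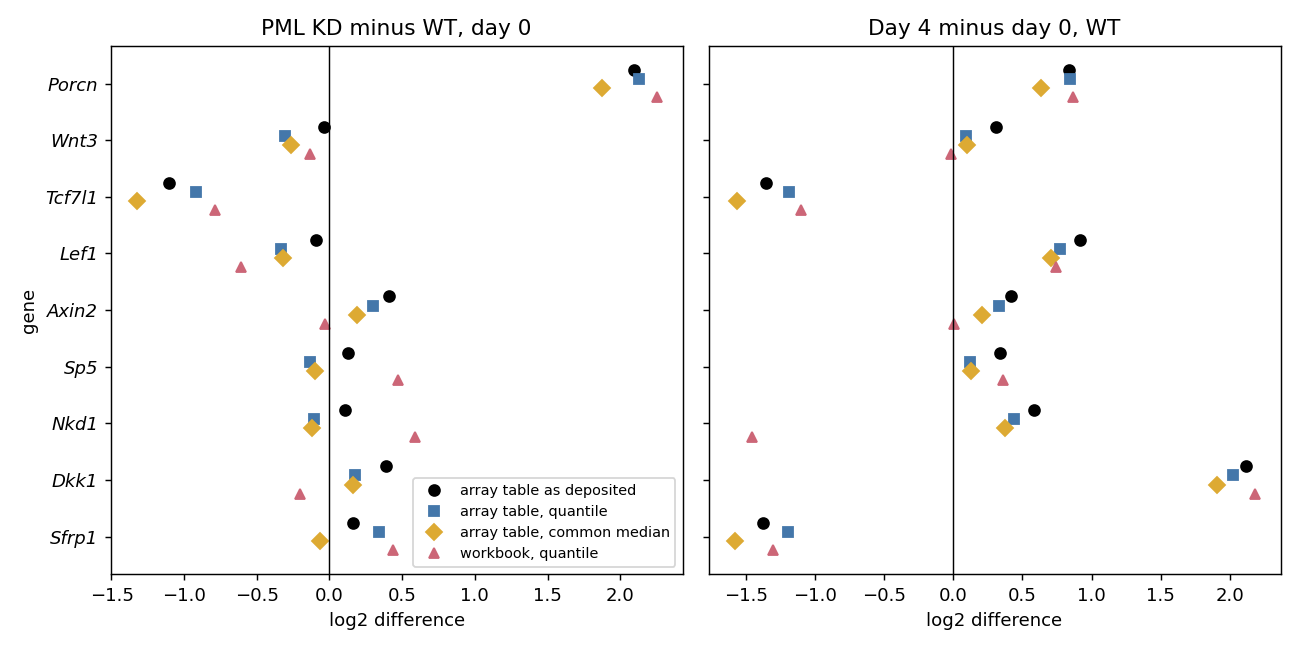
Difference in log2 signal (horizontal axis) of the 9 members between PML KD and WT at day 0 (left) and between day 4 and day 0 in WT (right), under 4 sources or scalings of the values. Porcn and Tcf7l1 keep their sign in all 4, while Nkd1 over time is positive in the array table and -1.46 in the workbook, and Dkk1 at day 0 is 0.39 as deposited and -0.20 in the workbook.

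The rest of the pathway was read from lists of 116 other genes, of which 115 were measured. At day 0 63 of them changed (54.8%), 38 higher and 25 lower in PML KD, a split that was 29 and 28 after quantile normalization and 19 and 39 after the shift to a common median. At day 4 45 changed (39.1%), 31 higher and 14 lower, or 37 and 7 after the shift. Over time 73 changed in WT (47 higher, 26 lower, turning to 27 and 40 after the shift) and 67 in PML KD (44 higher, 23 lower). The difference of the changes passed for 66, 32 higher and 34 lower, a split that was 51 and 11 after the shift. The shares stand beside those of all genes: 52.3% at day 0 (27.5% higher, 24.9% lower) and 28.6% at day 4 (16.8% higher, 11.8% lower). Over time 49.9% of all genes changed in WT and 49.6% in PML KD, and 50.6% passed the test of the difference. The counts of each list below are to be read beside these shares, and no test of the lists was made.

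At day 0 27.5% of all genes were higher in PML KD and 24.9% lower. Genes of Wnt secretion other than Porcn split there, with 4 of 11 higher and 5 lower. The 3 smallest p-values were all falls in the retromer route that returns Wntless to the Golgi: Snx3 fell by 1.38 ± 0.09 (adjusted p = 1.36e-05), Vps35 by 0.91 ± 0.08 (adjusted p = 5.09e-05) and Vps29 by 0.85 ± 0.07 (adjusted p = 3.90e-05). Snx3 signal was 11.15 and 11.14 in WT ESCs against 9.68 and 9.86 in PML KD ESCs, without overlap. At day 4 2 of 11 were higher and 2 lower, after the shift 3 and none. Wls, which encodes Wntless itself, was at 8.64 and 8.96 in WT EBs and at 10.16 and 9.92 in PML KD EBs. It was higher by 1.24 ± 0.13 (adjusted p = 0.000398; in the workbook after quantile normalization 0.82, adjusted p = 0.0535) where Porcn was lower, and was not separated at day 0 (0.18, adjusted p = 0.276). Over time 7 of 11 were higher and 2 lower in WT, which became 5 and 4 after the shift, and 10 were higher and 1 lower in PML KD. Of all genes 24.3% rose in each genotype. Gpc4, a glypican, rose in both genotypes (1.20 ± 0.08 in WT, 1.82 ± 0.08 in PML KD), and Notum, which removes the lipid that Porcn adds, fell in both (-1.51 ± 0.10 and -2.27 ± 0.10).

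Of 18 other Wnt ligands, 16 had a mean signal below the median of all genes. At day 0, where 27.5% of all genes were higher and 24.9% lower, 8 ligands were higher in PML KD and none lower. That became 4 and 1 after quantile normalization. Wnt4 (0.69 ± 0.13), Wnt2b (0.56 ± 0.10) and Wnt9b (0.44 ± 0.07) had the smallest p-values. At day 4 1 ligand was higher, Wnt7b by 0.70 ± 0.13 (adjusted p = 0.00433), and 2 were lower, Wnt11 (-0.60 ± 0.10, adjusted p = 0.00255) and Wnt8a (-0.30 ± 0.09, adjusted p = 0.0369), the last call lost after quantile normalization (-0.22, adjusted p = 0.0983). Wnt11 rose over time in WT by 0.72 ± 0.10, with 7.08 and 7.26 in ESCs and 7.87 and 7.91 in EBs, and in PML KD its difference was -0.04 (adjusted p = 0.777). That difference of changes passed (-0.76 ± 0.14, adjusted p = 0.00232).

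At day 0 27.5% of all genes were higher in PML KD ESCs and 24.9% lower. Receptors and co-receptors were higher there for 10 of 22 and lower for none, with 3 lower after either rescaling. Among the 10 were Fzd3 (0.77 ± 0.08), Lrp5 (0.65 ± 0.08) and Lrp6 (0.62 ± 0.07). At day 4, where 16.8% of all genes were higher and 11.8% lower, 7 of the 22 were higher and 1 lower. Fzd2, a Frizzled receptor, led them with 10.84 and 10.97 in PML KD EBs against 8.91 and 8.97 in WT EBs, higher by 1.96 ± 0.09 (adjusted p = 8.91e-06), followed by Ror1 (0.82 ± 0.11) and Lgr4 (0.59 ± 0.09). Fzd2 also rose over time in both genotypes and by more in PML KD (difference of the changes 1.33 ± 0.12, adjusted p = 7.28e-05).

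Secreted antagonists other than Dkk1 and Sfrp1 were higher in PML KD ESCs for 6 of 14 and lower for none. In the same comparison 27.5% of all genes were higher and 24.9% lower. The antagonists became 3 and 1 after quantile normalization. The 6 included Notum (0.97 ± 0.10), Sfrp4 (0.73 ± 0.13) and Sfrp2 (0.45 ± 0.11), the last not passing after the shift (0.23, adjusted p = 0.118). At day 4 2 were higher and 3 lower, against 3 and 2 after quantile normalization. Cer1, a secreted inhibitor made by anterior visceral endoderm in the mouse embryo, stood far apart with 6.97 and 7.08 in PML KD EBs against 9.55 and 9.52 in WT EBs (-2.51 ± 0.08, adjusted p = 4.47e-06). Dkk1, also made by those cells in the embryo, was not separated there. Frzb rose over time in WT (2.26 ± 0.12) and in PML KD (2.91 ± 0.12).

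Among cytoplasmic and nuclear components, most of those that passed were lower in PML KD ESCs. Shares of all genes there were 27.5% higher and 24.9% lower. These lists were bright, with median signal percentiles of 83.5 and 84.3, against 39.9 for ligands, 54.6 for receptors and 41.1 for antagonists. The 9663 genes above the median signal outside the X chromosome had a median day 0 difference of -0.14, against 0.09 for all genes. The part of signal level in the split between lists was not tested. Of 24 cytoplasmic genes 5 were higher and 12 lower at day 0, with falls of the phosphatase subunits Ppp2r1a (-1.01 ± 0.07) and Ppp2ca (-0.77 ± 0.08) and a rise of the tankyrase Tnks (0.73 ± 0.08), which marks Axin for degradation. At day 4, where 16.8% of all genes were higher and 11.8% lower, 11 were higher and 3 lower. That became 6 and 3 after quantile normalization. Both Ppp2r1a (0.45 ± 0.07) and Tnks (-0.55 ± 0.08) had the opposite sign to day 0. Of 13 other nuclear factors 1 was higher and 5 lower at day 0 (none and 10 after the shift), among them the corepressors Tle3 (-0.82 ± 0.07), Tle4 (-0.53 ± 0.08) and Ctbp1 (-0.52 ± 0.08), which work with Tcf factors such as Tcf7l1. At day 4 2 were higher and 1 lower, against 1 and 2 after quantile normalization, with Tcf7l2 lower (-0.63 ± 0.08, adjusted p = 0.000768) and the beta-catenin cofactor Bcl9 higher (0.62 ± 0.09, adjusted p = 0.00131).

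Of 18 other feedback and target genes, 7 were higher and 3 lower in PML KD ESCs, against 27.5% and 24.9% of all genes. The split was 4 and 4 after the shift to a common median. The growth regulators in this list parted ways: Myc was at 10.14 and 10.05 in WT ESCs and 7.92 and 8.21 in PML KD ESCs (-2.03 ± 0.11, adjusted p = 8.34e-06), while Ccnd1, which encodes cyclin D1, was higher by 1.04 ± 0.07 (adjusted p = 1.86e-05). At day 4 7 were higher and 2 lower, with Myc higher by 1.08 ± 0.11 (adjusted p = 0.000311) at 9.19 and 9.25 in PML KD EBs and 8.05 and 8.22 in WT EBs. Myc had the same signs as Tcf7l1, lower in PML KD at day 0 and higher at day 4, with a difference of the changes of 3.11 ± 0.16 (adjusted p = 9.16e-06). Cd44 (0.66 ± 0.09) and Ascl2 (0.62 ± 0.09) were also higher in PML KD EBs.

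**Figure D5:**
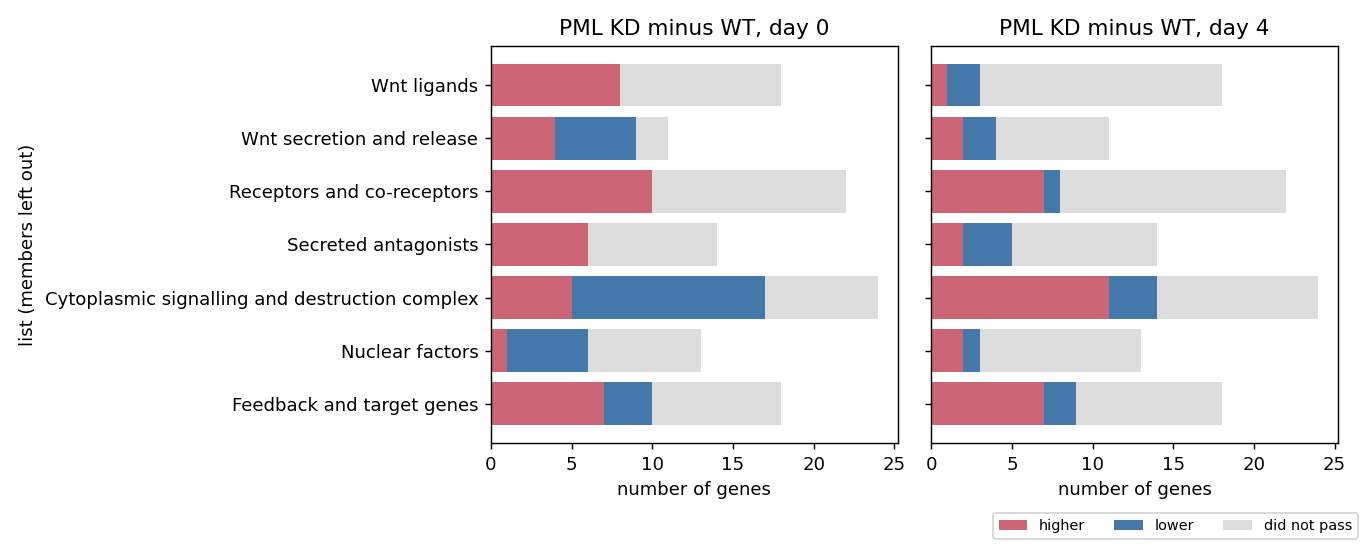
Number of genes (horizontal axis) of each Wnt pathway list, members left out, that were higher, lower or did not pass in PML KD against WT at day 0 (left) and day 4 (right). At day 0 ligands, receptors and secreted antagonists hold 8, 10 and 6 higher genes and no lower ones, a split that weakens with rescaling. Cytoplasmic genes hold 12 lower ones. The lists also differ in brightness, with median signal percentiles of 39.9, 54.6 and 41.1 for the former and 83.5 for cytoplasmic genes.

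The genes whose pattern was most like that of 3 members were found by the mean absolute difference of log2 values centred on each gene, over the 8 arrays. For Porcn they included Slc7a7, an amino acid transporter subunit, at 0.11 log2 units, and Ntn1, which encodes netrin-1, at 0.19. A gene with a microRNA symbol came between them and is not described, since its probe set was not matched by arm. Slc7a7 was at 9.55 and 9.70 in WT ESCs, 11.48 and 11.49 in PML KD ESCs, 10.13 and 10.15 in WT EBs, and for PML KD EBs 9.73 and 9.54. Like Porcn it was highest in PML KD ESCs and next highest in WT EBs. For Axin2 the nearest were Gip, Hinfp and Bach2, at 0.029, 0.033 and 0.035, and for Sp5 Inmt, Stk32c and Egr3, at 0.034, 0.036 and 0.038. By this measure genes that vary little over the arrays lie close to one another, and no test of likeness was made.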

How the data were processed

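The authors deposited linear intensity values for 35556 probe sets of 8 arrays, already summarised. The Transcriptome Analysis Console is named in the submitters' processing notes. The sources used here do not say how background was corrected or arrays were normalized. A deposited workbook holds log2 values for 24451 genes over constitutive exons, per the file headers, and served as an alternative. Its 4 columns of group means were not used here. The platform table gives 21789 probe sets 1 symbol, 1621 several, and does not list 12146. Only those with 1 symbol were used, and the brightest was kept for the 999 genes with more than 1.

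The log2 of each intensity was taken as it stood. All arrays entered 1 model of 4 group means and 5 contrasts (lmFit and eBayes of limma 3.58.1, R 4.3.3, with 4 residual degrees of freedom). Adjusted p-values follow Benjamini and Hochberg over 19938 genes at a threshold of 0.05. The fit was tested on simulated data. The SD of a single array was 0.108 to 0.131 log2 units. Deviations of same-numbered arrays correlated from -0.082 to 0.085 over 6 pairs of groups, so the numbers were not taken to pair samples.

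The members, the 7 pathway lists and the 6 marker lists (ESC, primitive streak, visceral endoderm, trophectoderm, neuroectoderm and fibroblast) were chosen with earlier results of these data known. Genes named are the members, Pml, up to 3 genes per list and comparison with the smallest adjusted p, and the 3 genes most like Porcn, Axin2 and Sp5. Outside that rule, Ebp was chosen after its values were seen, and Eif2s3y, Uty, Kdm5d and Xist were read to check the arrays. Cdx2, Pou5f1 and Klf4 were named because they went against most of their marker list in EBs. Upstream sequences come from a RefSeq promoter table (GRCm38.p6) searched for 2 cores on both strands. The alternatives tried were 2 rescalings of the array table, the workbook as deposited and after quantile normalization, the mean over a gene's probe sets, a filter on dim genes, a trend in the prior, only the arrays compared, a replicate block, a constant of 16, leaving out each array, and, added after seeing the data, all probe sets and no PML KD ESCs.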

Additional observations from a re-analysis of the deposited data

Results flagged for a closer look

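For 5 of the 9 members the change from day 0 to day 4 differed between PML KD and WT by a test of that difference in limma, adjusted over all genes. Porcn fell in PML KD and rose in WT, a difference of -2.68 ± 0.13 on the log2 scale (adjusted p = 8.85e-06). Tcf7l1 did the reverse, with 1.80 ± 0.12 (adjusted p = 2.14e-05). Axin2 and Sp5 rose in WT and were not separated by day in PML KD, with differences of -0.54 ± 0.11 (adjusted p = 0.00497) and -0.48 ± 0.15 (adjusted p = 0.0296). After the shift to a common median neither difference passed (-0.20, adjusted p = 0.186, for Axin2 and -0.14, adjusted p = 0.471, for Sp5), nor did the rise of Axin2 in WT (0.21, adjusted p = 0.0592), and in the workbook Sp5 fell in PML KD (-1.28 as deposited, adjusted p = 0.00655, and -0.81 after quantile normalization, adjusted p = 0.0403). Wnt3 rose in both and by more in PML KD, with 0.40 ± 0.13 (adjusted p = 0.0360), a call lost with a trend in the prior (adjusted p = 0.0671), with all probe sets tested (adjusted p = 0.0569) and without any 1 of 5 arrays (WT ESC replicate 2, WT EB replicate 1, PML KD ESC replicate 2 and both PML KD EB arrays, adjusted p from 0.0826 to 0.122). For Porcn and Tcf7l1 both EB arrays lay on the stated side of both ESC arrays in each genotype. Of all genes 50.6% passed this test. Each rests on the PML KD ESC arrays, which stand apart in Y-linked transcripts, also from the PML KD EBs. The part of that in these differences was not tested.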

How the results depend on the processing

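With 20 alternative settings, the number of members changed stayed within 1.5 times its value in both comparisons over time. At day 0 it went from 4 to 2 in the workbook as deposited. Quantile normalization of the array table moved it the other way. Wnt3, Lef1 and Sfrp1 gained a call there (adjusted p = 0.0297, 0.0136 and 0.00332) and Dkk1 lost its call (adjusted p = 0.382). Of the 19938 genes 8759 were called in that setting, against 10432 in the deposited values. The difference of the changes went from 5 to 3 in that workbook and with all 35556 probe sets tested. Leaving out 1 array gave 3 to 4 at day 0, 3 to 5 at day 4 (3 without WT EB replicate 1, PML KD EB replicate 1 or PML KD EB replicate 2), and 3 to 5 for the difference of the changes (3 without WT ESC replicate 2 or PML KD EB replicate 1). Values that had passed turned sign in the workbook alone. As deposited it gave -0.072 for Dkk1 at day 0, -0.22, -0.089 and -1.66 for Wnt3, Axin2 and Nkd1 over time in WT, -1.29 for Nkd1 in PML KD and 0.043 for the difference of the changes of Axin2. After quantile normalization it gave -0.030 for Axin2 and -0.20 for Dkk1 at day 0, -0.014 for Wnt3 and -1.46 for Nkd1 over time in WT, -1.31 for Nkd1 in PML KD and 0.13 for the difference of the changes of Axin2. The cause was not tested, but as deposited the workbook's median over all genes moved by -0.26 over time in WT and -0.23 in PML KD. With the replicate block 3 members changed at day 0 and 4 at day 4, since Dkk1 (0.39, adjusted p = 0.0601) and Sp5 (-0.36, adjusted p = 0.0586) no longer passed, and it changed no other call. Without the PML KD ESC arrays the counts stayed at 5 at day 4 and 9 over time in WT. Signal near the dim end limits what can be said of Wnt3 and Sp5.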

Other observations

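Markers of other cells were also read in these cultures. Of 7 neuroectoderm markers 1 was higher and 1 lower in PML KD ESCs: Pax6 rose by 0.89 ± 0.07 (adjusted p = 3.68e-05) and Otx2 fell by 0.91 ± 0.08 (adjusted p = 3.69e-05). In EBs 2 were higher, Nes (0.76 ± 0.12, adjusted p = 0.00259) and Pax6 (0.41 ± 0.07, adjusted p = 0.00406), and Hesx1 was lower (-0.23 ± 0.07, adjusted p = 0.0431), a call lost after quantile normalization (-0.21, adjusted p = 0.0586), after the shift to a common median (-0.12, adjusted p = 0.282) and in the workbook after quantile normalization (-0.019, adjusted p = 0.929). Of 9 fibroblast markers 5 were higher and none lower in PML KD ESCs, with a summed linear signal of 1590 to 1776 against 1363 to 1378 in WT ESCs. The 5 became 2 after quantile normalization and 1 after the shift, the median went from 0.22 to 0.050 and -0.0035, and of all genes 27.5% were higher. In EBs 4 were higher and 2 lower, among them the collagen gene Col1a2, higher by 2.06 ± 0.11 (adjusted p = 1.64e-05), and the receptor gene Pdgfra, which was lower (-0.85 ± 0.14, adjusted p = 0.00263).

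Xist, the RNA that coats an inactive X chromosome, was at 6.12 and 6.38 in WT ESCs, 7.37 and 7.60 in PML KD ESCs, 6.82 and 7.08 in WT EBs, and for PML KD EBs 6.19 and 6.62. On every array this was below the median of all genes, which ran from 7.75 to 7.89, and the state of the X chromosome was not tested. The 303 X-linked genes above the median signal had a median difference of -0.21 between PML KD and WT ESCs, against -0.14 for such genes elsewhere.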
